A study of Mus musculus and Homo sapiens with 107 samples.

Results

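The EGF family ligands examined here are 7 genes, AREG, EREG, TGFA, HBEGF, BTC, NRG1 and EPGN, taken by their Ensembl identifiers from the gene count tables of 2 human lung cancer lines. All 7 were among the 22842 identifiers that both tables hold (24019 rows for H1299 and 24353 for A549). The study asked what happens to gene expression when the SWI/SNF chromatin remodelling complexes are inhibited. The groups were H1299 given BRM014, H1299 given DMSO, A549 given BRM014 and A549 given DMSO, with 3 RNA-seq libraries each. BRM014, which inhibits both SWI/SNF ATPases, BRM and BRG1, was used at 5 µM for 12 h. DMSO, its solvent, was used at 0.05% for 12 h by the sample titles, while another label field gives 0.5%. Both lines are established lines of non-small-cell lung cancer, labelled wt in genotype, with no engineered allele. From other work both are known to carry damaging mutations of SMARCA4, the gene of BRG1.

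Ligands of this family are made as precursors anchored in the cell membrane and are released by metalloproteases of the ADAM family. AREG, TGFA and EPGN bind the receptor EGFR, while HBEGF, BTC and EREG bind both EGFR and ERBB4, and NRG1 binds ERBB3 and ERBB4. In lung epithelium and in lung carcinoma these ligands act on the cell that makes them or on its neighbours, and the receptors signal through ERK among other routes. AREG, EREG, BTC and EPGN lie in 1 cluster of neighbouring genes, and the other members lie elsewhere in the genome.

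The libraries held 30602193 to 41780029 counts in H1299 with BRM014, 28412113 to 40072734 in H1299 with DMSO, 42417643 to 44910378 in A549 with BRM014 and 40684360 to 50177678 in A549 with DMSO. The lines differed in medium and in PCR cycles (8 for H1299, 9 for A549), so line, medium and cycles cannot be told apart. For A549, 1 column header stands over a pair of BRM014 libraries, which therefore have no number of their own and are called a and b here. In A549, library a and DMSO replicate 1 deviated together from their group means (r = 0.69 over 10652 genes at 5 CPM or more). Less closely, so did BRM014 replicate 3 with DMSO replicate 3 (r = 0.48) and with DMSO replicate 2 (r = 0.41). Deviations from a group mean cancel within the group, so these values are tied together and are not separate instances. Library a had r = -0.42 with DMSO replicate 2 and -0.56 with DMSO replicate 3. BRM014 replicate 3 had r = -0.63 with DMSO replicate 1. Over all genes tested in A549, low ones included, the pairs with r = 0.69, 0.48 and 0.41 had r = 0.20, 0.11 and 0.09. Without library a and DMSO replicate 1, the same 3 ligands passed the test in A549, with log2 fold changes of 0.61 for AREG, 0.19 for EREG and -1.44 for TGFA. Over all genes 6456 passed without that pair, against 5624 with it. The words "rose" and "fell" are used of genes with an adjusted p below 0.05 in edgeR's quasi-likelihood test. The adjustment covered the genes that passed a filter on low counts, 14986 in H1299 and 15188 in A549. Levels are CPM, which divide counts by library totals over those genes, adjusted with TMM factors in the fit of the line. Fold changes are therefore relative to the rest of a library's RNA, because RNA per cell was not measured here.

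TGFA fell in both lines. TGFA (ENSG00000163235) encodes transforming growth factor alpha, a ligand of EGFR alone among the receptors of the family. In H1299 its level was 18.3, 18.7 and 18.6 CPM with BRM014, against 35.6, 34.9 and 33.4 CPM with DMSO. The groups did not overlap, and the BRM014 libraries lay close together. The log2 fold change was -0.90 with a standard error of 0.06 (adjusted p = 1.66e-15 in edgeR), a 1.87-fold fall with a 95% interval of 1.73 to 2.02. In A549 its level was 8.94, 8.41 and 8.22 CPM with BRM014, against 21.4, 21.5 and 23.1 CPM with DMSO. These groups were also apart, and the highest BRM014 library stood below the lowest DMSO library. The change was -1.37 on the log2 scale, standard error 0.07 (adjusted p = 2.14e-08 in edgeR), a 2.58-fold fall with a 95% interval of 2.33 to 2.86.

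HBEGF fell in H1299 and did not pass the test in A549, and the difference of its responses passed a test of its own, given further on. HBEGF (ENSG00000113070) encodes heparin-binding EGF-like growth factor, a ligand of EGFR and ERBB4 whose membrane form is also the receptor of diphtheria toxin. In H1299 its level was 14.0, 13.2 and 13.4 CPM with BRM014, against 44.6, 47.5 and 46.2 CPM with DMSO. The groups lay far apart relative to their spread, with SDs of 0.423 CPM with BRM014 and 1.44 CPM with DMSO. The change was -1.77 on the log2 scale, standard error 0.06 (adjusted p = 1.84e-23 in edgeR), a 3.42-fold fall with a 95% interval of 3.16 to 3.69. Of the 14986 genes tested in H1299, it had rank 85 counted from the lowest log2 fold change. In A549 its level was 8.64, 8.63 and 8.36 CPM with BRM014, against 9.32, 8.80 and 8.09 CPM with DMSO. The BRM014 libraries lay inside the range of the DMSO libraries. Its log2 fold change there was -0.03 (95% interval -0.20 to 0.14, adjusted p = 0.793 in edgeR), so a fall of the size measured in H1299 lies outside the interval.

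AREG (ENSG00000109321), which encodes amphiregulin, rose in A549. Its level was 105, 113 and 118 CPM with BRM014, against 71.3, 75.0 and 74.8 CPM with DMSO. The lowest BRM014 library stood well above the highest DMSO library. The log2 fold change was 0.60 with a standard error of 0.05 (adjusted p = 1.7e-06 in edgeR), a 1.52-fold rise with a 95% interval of 1.41 to 1.64. In H1299 AREG was nearly silent, with 4, 4 and 2 counts in the BRM014 libraries, against 7, 3 and 10 counts in the DMSO libraries. The groups overlapped, and the gene did not pass the filter on low counts in that line. The ratio of summed counts per total, BRM014 over DMSO, was 0.479 with an exact 95% interval of 0.200 to 1.07, which covers counting error only.

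EREG (ENSG00000124882), which encodes epiregulin and neighbours AREG, rose in A549 as well, by less. Its level was 149, 154 and 162 CPM with BRM014, against 131, 141 and 133 CPM with DMSO. The groups did not overlap, but the gap between them was of about the size of the spread within them. The log2 fold change was 0.20 with a standard error of 0.04 (adjusted p = 0.00399 in edgeR), a 1.15-fold rise with a 95% interval of 1.07 to 1.23. In H1299, EREG had 0, 1 and 0 counts with BRM014 and 1, 0 and 0 counts with DMSO. Both groups are under the 3 counts taken as the floor, so no fold change is given.

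The ratio of AREG to EREG counts within a library does not depend on how libraries are scaled, although its size also reflects the lengths of the transcripts. In A549 it was 0.705, 0.733 and 0.729 with BRM014, against 0.544, 0.532 and 0.564 with DMSO. The groups did not overlap, and the ratio was higher in each BRM014 library than in any DMSO library. This ratio was chosen after the values of the genes were seen, so it is a description and no test is read from it. With 3 libraries in each group, an exact permutation test over the 20 splits can give no two-sided p below 0.1.

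BTC and EPGN, the other members of that cluster, gave no call in either line. BTC (ENSG00000174808), which encodes betacellulin, had 0.803, 0.596 and 0.588 CPM in H1299 with BRM014, against 0.683, 0.641 and 0.749 CPM with DMSO. Its log2 fold change there was -0.07 (95% interval -0.70 to 0.56, adjusted p = 0.916 in edgeR), on 69 counts with BRM014 and 68 with DMSO. As folds the interval runs from 0.616 to 1.48. In A549 BTC had 3.09, 2.69 and 2.95 CPM with BRM014, against 3.02, 3.02 and 2.67 CPM with DMSO, and the log2 fold change was 0.00 (95% interval -0.24 to 0.25, adjusted p = 0.986 in edgeR). That interval lies below the whole interval of AREG in the same libraries, 0.49 to 0.71, and overlaps that of EREG, 0.10 to 0.30.

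EPGN (ENSG00000182585), which encodes epigen, had few counts in both lines and did not pass the filter in either. It had 5, 13 and 17 counts in H1299 with BRM014, against 10, 15 and 3 counts with DMSO, and these groups overlapped. The ratio of summed counts per total was 1.198 (exact 95% interval 0.708 to 2.04). In A549 it had 5, 5 and 9 counts with BRM014, against 3, 3 and 4 counts with DMSO, and these groups did not overlap. The ratio was 2.00 with an exact 95% interval of 0.887 to 4.83, which includes no change.

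NRG1 (ENSG00000157168), which encodes neuregulin 1, a ligand of ERBB3 and ERBB4, rose in H1299. Its level there was 13.1, 13.4 and 12.9 CPM with BRM014, against 10.4, 8.40 and 9.99 CPM with DMSO. The groups did not overlap, and the DMSO libraries spread more, with a coefficient of variation of 10.9% against 1.98% with BRM014. The log2 fold change was 0.45 with a standard error of 0.08 (adjusted p = 8.24e-05 in edgeR), a 1.36-fold rise with a 95% interval of 1.21 to 1.54. In A549, where NRG1 was high, it had 163, 153 and 159 CPM with BRM014, against 155, 146 and 153 CPM with DMSO. These groups overlapped, and the log2 fold change of 0.06 did not pass the test (95% interval -0.02 to 0.15, adjusted p = 0.245 in edgeR). Scaled by library totals, without TMM factors, it did pass, at 0.11 with an adjusted p of 0.0433, a setting in which the median of all A549 genes was 0.07.

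**Figure D1:**
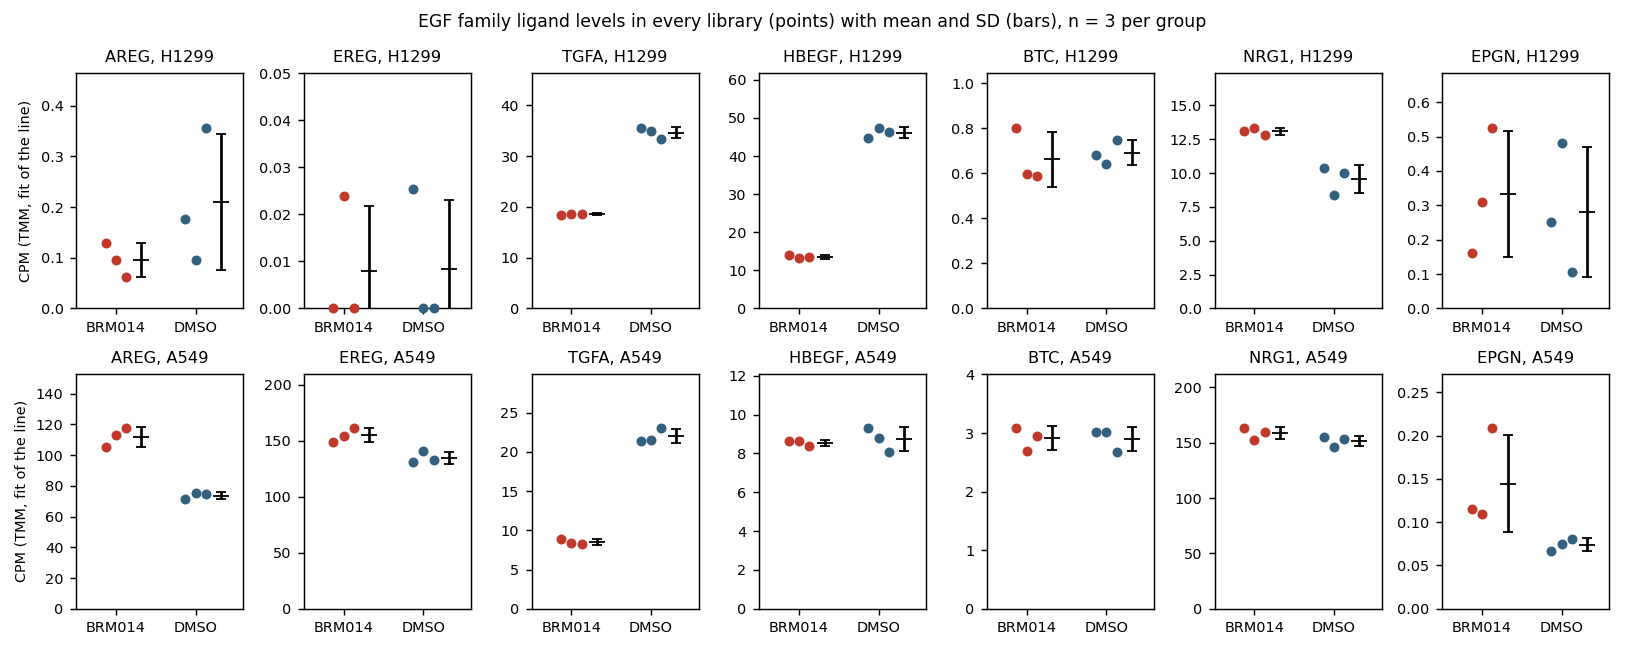
Level of each ligand in every library, in CPM on a linear axis from 0, with H1299 in the upper row and A549 in the lower row; points are libraries, and bars at the side are the mean and SD of 3. TGFA lies lower with BRM014 in both rows without overlap, and HBEGF does so in H1299 alone (13.2 to 14.0 against 44.6 to 47.5 CPM). AREG lies higher in A549 (105 to 118 against 71.3 to 75.0 CPM).

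In counts, 1 member rose and 2 fell in H1299 among the 4 tested (TGFA, HBEGF, BTC and NRG1), where 9.29% of all tested genes rose and 12.7% fell. In A549, 2 members rose and 1 fell among the 6 tested, where 17.7% of all tested genes rose and 19.4% fell. The members' median log2 fold change was -0.49 in H1299, against 0.00 over all genes tested, and 0.03 in A549, against 0.02. With so few members these counts describe the list and single out nothing about it. Tests of the members that passed the filter do not stand for the whole list, since AREG and EREG in H1299 and EPGN in both lines did not pass the filter. With no filter on low counts, AREG and EPGN did not pass the test in edgeR. The log2 fold changes were -1.08 for AREG (adjusted p = 0.415 in edgeR) and 0.23 for EPGN (0.834) in H1299, and 0.93 for EPGN (0.331) in A549. EREG in H1299, with 1 count in each group, could not have passed, so its test says nothing of a response. The sizes can be set beside the usual change in each table: the median absolute log2 fold change over all tested genes was 0.10 in H1299 and 0.16 in A549. TGFA had rank 304 of 14986 in H1299 and rank 417 of 15188 in A549, counted from the lowest log2 fold change, while AREG had rank 868 and EREG rank 3467 in A549 and NRG1 rank 638 in H1299, counted from the highest.

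**Figure D2:**
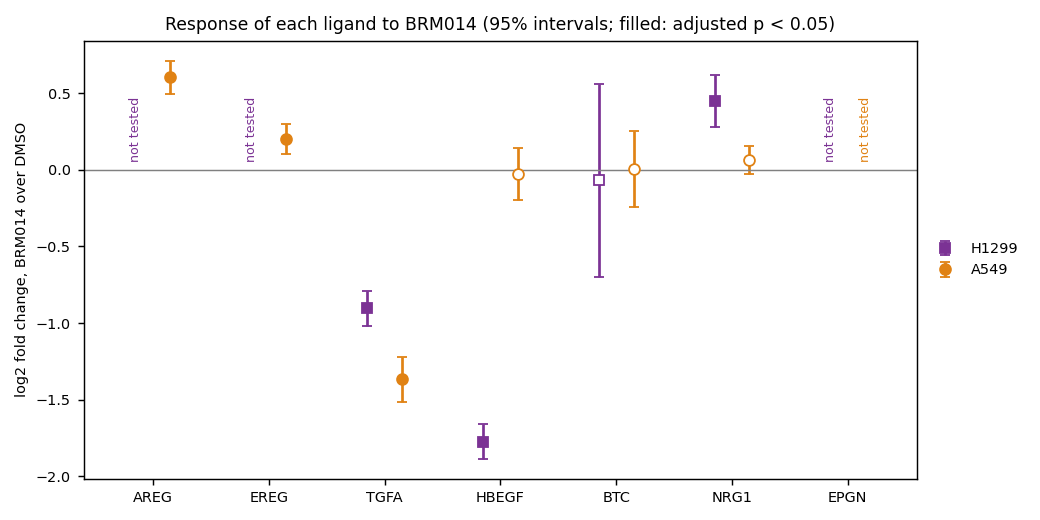
Log2 fold change of each ligand, BRM014 over DMSO, in H1299 (squares, left of each pair) and A549 (circles), with 95% intervals from edgeR; filled symbols passed the adjusted p of 0.05, and members that did not pass the filter on low counts are marked as not tested. The whole interval is below 0 for TGFA in both lines (-0.90 and -1.37) and for HBEGF in H1299 alone (-1.77 against -0.03 in A549). It is above 0 for NRG1 in H1299 (0.45) and for AREG (0.60) and EREG (0.20) in A549.

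**Figure D3:**
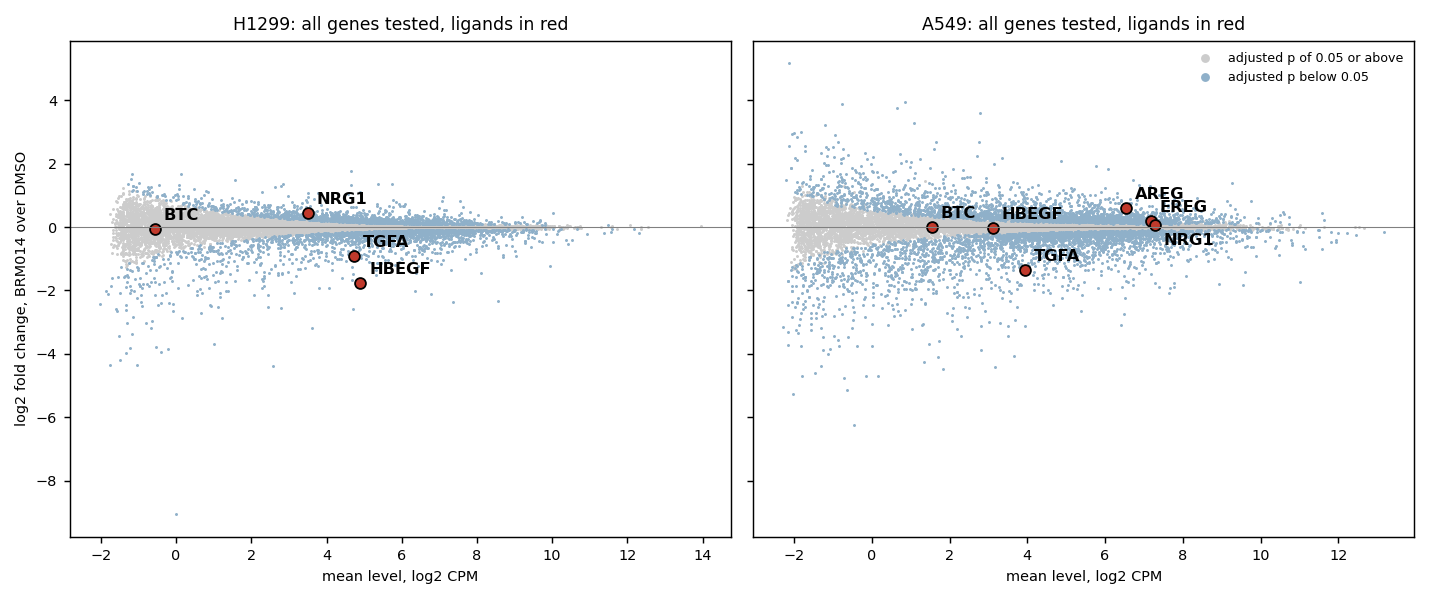
Log2 fold change (BRM014 over DMSO) against mean level in log2 CPM for every gene tested, H1299 on the left and A549 on the right, with the tested ligands in red and genes past the adjusted p of 0.05 in blue. HBEGF in H1299 lies near the lower edge of genes at its level, while BTC in both lines and HBEGF in A549 lie close to the zero line.

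Whether the response itself differed between the lines was tested as an interaction in a joined fit of the 12 libraries, H1299 minus A549. It passed for 4 of the 7 members. It was more positive in H1299 for TGFA and NRG1, where 10.2% of all tested genes were, and more negative for HBEGF and AREG, where 9.25% were. The HBEGF response differed by -1.72 on the log2 scale (standard error 0.09), and edgeR gave it an adjusted p of 1.87e-12. For TGFA, which fell in both lines, the fall was smaller in H1299 by 0.49 on the log2 scale (standard error 0.09), at an adjusted p of 0.000221. The NRG1 response was higher in H1299 by 0.41 (standard error 0.08), at an adjusted p of 0.000935.

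For AREG the interaction was -1.65 with a standard error of 0.53, which passed in edgeR with an adjusted p of 0.0304, but on the H1299 side this rests on 10 counts with BRM014 and 20 with DMSO. The call was lost in limma-voom (adjusted p = 0.104) and on leaving out any of 4 of the 6 H1299 libraries, namely BRM014 replicate 2 or 3 and DMSO replicate 1 or 3 (adjusted p = 0.0519 to 0.237). The interaction did not pass for BTC (log2 difference -0.05, 95% interval -0.61 to 0.51) or EPGN (-0.68, 95% interval -2.36 to 1.01). That of EREG rests on 2 counts in H1299 and is not interpretable.

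The lines differed in every member without the inhibitor, by the test of H1299 minus A549 in DMSO. TGFA, HBEGF and EPGN were higher in H1299, where 42.9% of all genes tested were, and AREG, EREG, BTC and NRG1 were lower, where 42.8% were. Since so many genes differ between these lines, calls for the members are close to what any gene would give, and the sizes carry more than the count. For these comparisons CPM were scaled over the 12 libraries together, so they differ somewhat from the values above.

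AREG and EREG were the ligands with the widest gaps among the 7. AREG had 0.166, 0.0893 and 0.331 CPM in H1299 with DMSO, against 77.2, 82.0 and 81.8 CPM in A549 with DMSO. By summed counts, 20 in H1299 and 9931 in A549, it was 362-fold lower in H1299 per total (exact 95% interval 234 to 593, counting error only). EREG had 1 count over the 3 H1299 DMSO libraries and 18145 over those of A549. The ratio per total was 13223 in favour of A549, with an exact 95% interval of 2373 to 522299, so its size is known only roughly. Both differences passed the test (adjusted p = 1.05e-26 for AREG and 6.51e-29 for EREG in edgeR). BTC, from the same cluster, averaged 0.643 ± 0.0501 CPM in H1299 and 3.17 ± 0.213 CPM in A549 (SD, n = 3 each), a log2 difference of -2.29 with a standard error of 0.17 (adjusted p = 7.46e-12 in edgeR). EPGN ran the other way within the cluster, with 28 counts over the H1299 DMSO libraries and 10 over those of A549, a ratio per total of 3.84 (exact 95% interval 1.81 to 8.87). Its call depended on H1299 DMSO replicate 2, the library with 15 counts, without which the log2 difference was 1.11 with an adjusted p of 0.142, against 1.67 and 0.0147 with it.

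NRG1 averaged 8.93 ± 1.00 CPM in H1299 and 165 ± 4.56 CPM in A549 with DMSO (SD, n = 3 each), a log2 difference of -4.20 with a standard error of 0.06 (adjusted p = 8.17e-27 in edgeR). HBEGF averaged 42.9 ± 1.16 CPM in H1299 and 9.51 ± 0.62 CPM in A549, a log2 difference of 2.17 with a standard error of 0.06 (adjusted p = 1.82e-20 in edgeR). TGFA was the closest between the lines, at 32.2 ± 1.18 CPM in H1299 and 24.0 ± 1.10 CPM in A549, a log2 difference of 0.43 with a standard error of 0.06 (adjusted p = 2.24e-07 in edgeR). With library totals the TGFA difference was 0.65, in a setting where the median difference of all genes was 0.24, against 0.02 with TMM.

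The gap between the lines can also be read at each treatment, on the same scale. HBEGF in H1299 stood 1.37-fold above A549 with BRM014 and 4.51-fold above it with DMSO, so the lines stood closer with the inhibitor. TGFA went the other way, 1.89-fold above A549 with BRM014 and 1.35-fold with DMSO. NRG1 in H1299 was 13.9-fold below A549 with BRM014 and 18.5-fold below with DMSO, a narrowing that left the order of the groups as it was. BTC stood 5.06-fold below A549 with BRM014 and 4.92-fold below it with DMSO. The change of these gaps is what the interaction tested, so they are the same comparison in other units and no second test. Ordered by level, TGFA ran from H1299 with DMSO (the highest) through A549 with DMSO and H1299 with BRM014 to A549 with BRM014, and no neighbours in that order overlapped. HBEGF ran from H1299 with DMSO through H1299 with BRM014 to the A549 groups, which overlapped. NRG1 had the A549 groups highest and overlapping, then H1299 with BRM014, then H1299 with DMSO.

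**Figure D4:**
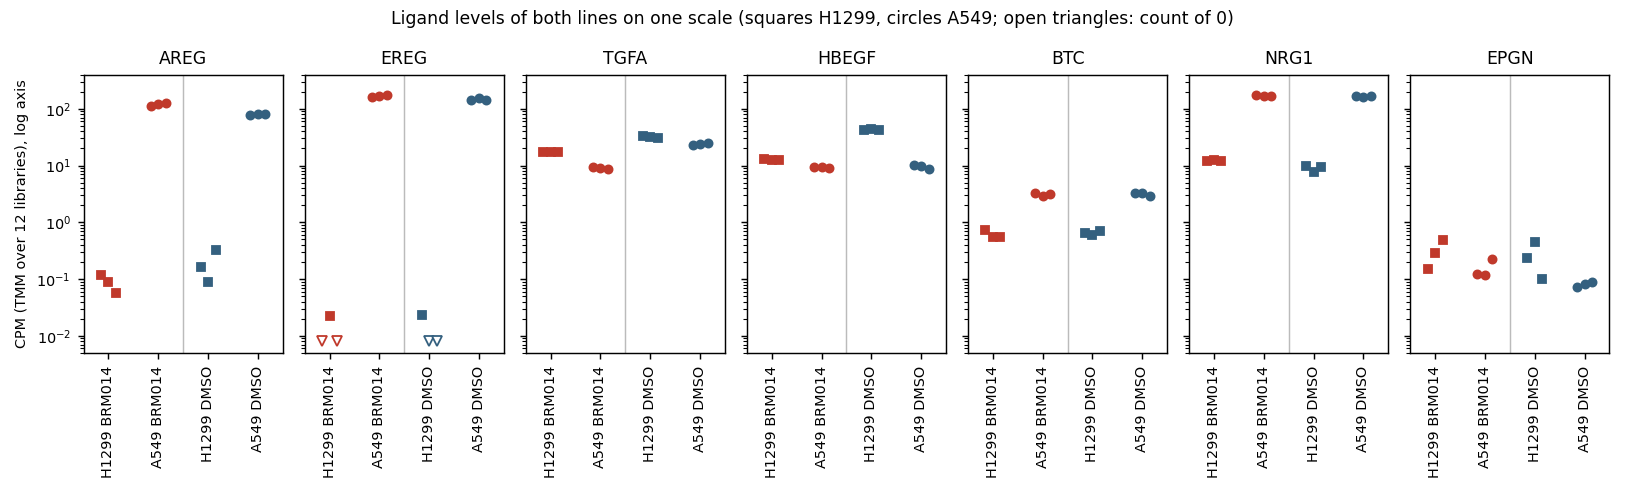
Level of each ligand in all 12 libraries on a shared log axis, in CPM scaled over the 12 libraries, with BRM014 groups (red) left of DMSO groups (blue) and H1299 (squares) left of A549 (circles); open triangles mark libraries with a count of 0. AREG and EREG are near the bottom in H1299 and far higher in A549, and the HBEGF groups that stand 4.51-fold apart with DMSO stand 1.37-fold apart with BRM014.

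Other genes with patterns like those of TGFA, HBEGF, BTC and NRG1 were ranked among the 13675 tested in both lines. The ranking was by the correlation of log2 CPM over the 12 libraries after the mean of each line was taken away. AREG, EREG and EPGN were not tested in both lines and were not ranked. The gene closest to TGFA was ENSG00000067798 (Pearson r = 0.998, Spearman rho = 0.972, n = 12 libraries), with a log2 fold change of -0.67 in H1299 and -1.001 in A549. The gene closest to HBEGF was ENSG00000103966 (r = 0.994, rho = 0.944, n = 12), with -0.66 in H1299 and 0.05 in A549. For NRG1 and BTC the highest Pearson r was lower, at 0.965 and 0.847 (n = 12 each). The points share 2 treatments in 2 lines, so such values describe a shared order of the groups. The identifiers are given as the tables list them, since the tables pair none with a symbol.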

How the data were processed

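The 12 RNA-seq libraries of H1299 and A549 were analysed, and the other 95 samples of the series, from other assays and cells, were not. Each library was made from 500 ng of total RNA with a stranded kit that removes ribosomal RNA, per the labels' protocols. What the authors deposited is 1 table per line of counts per gene, unnormalized whole numbers. The submitters' processing notes name cutadapt 1.14, Bowtie 1.2.2, STAR 2.7.3a, featureCounts, DESeq2 and the build hg38. How each was used, the annotation and whether counting used strand are not stated there, so reads of overlapping or antisense genes cannot be told apart. Whether replicates are separate cultures is not in the labels, and p-values then measure only how these libraries vary, which may be technical in part. Replicates of each group differed by more than sampling noise (chi-square per degree of freedom 2.20 to 11.1).

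The members, by the identifiers of the rule, and the tests were chosen with earlier results of these data known. The genes named are all 7 members, whatever their values. The lists of receptors, sheddases, receptor brakes and cell type markers were fixed by symbol and could not be matched, because the tables hold identifiers only and the name tables at hand were for mouse. Sequences, positions and gene lengths were not used here for the same reason, and levels of different genes are not compared.

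Counts were fitted in R 4.3.3 with edgeR 4.0.16 over all genes kept by filterByExpr (minimum count 10, minimum total 15), with TMM factors, the two-sided quasi-likelihood test and Benjamini-Hochberg adjustment at 0.05. Each line was fitted alone, and the interaction and the DMSO comparison came from a joined fit. Standard errors were computed from the log2 fold change and F (|log2 fold change| / √F), with 95% intervals from the t distribution of the fit. Exact intervals of count ratios cover counting error only. The steps were tested on simulated data, with independent libraries, the same spread for every gene and changes only in genes well above the floor. That test therefore does not cover members with few counts or libraries that deviate together. Alternatives were DESeq2 size factors, library totals, limma-voom (limma 3.58.1), DESeq2 1.42.0, no filter, a filter of 5 CPM in 3 libraries, the joined fit, a replicate block in H1299 and leaving out each library. Leaving out both A549 libraries that deviate together was added after seeing the data.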

Additional observations from a re-analysis of the deposited data

Results flagged for a closer look

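For 4 of the 7 ligands the lines responded differently to BRM014 by the interaction test in edgeR, given as H1299 minus A549, where 10.2% of all tested genes were more positive in H1299 and 9.25% more negative. HBEGF had a log2 difference of -1.72, with a response of -1.77 in H1299 and -0.03 in A549, and it ranged from -1.76 to -1.66 over 19 alternatives, past the threshold in each. TGFA had a log2 difference of 0.49, with -0.90 in H1299 and -1.37 in A549, and ranged from 0.45 to 0.55, past the threshold in each of 19. NRG1 had a log2 difference of 0.41, with 0.45 in H1299 and 0.06 in A549, and ranged from 0.32 to 0.48, past the threshold in each of 19. AREG had a log2 difference of -1.65, resting on 30 AREG counts over the 6 H1299 libraries, and lost the call in 5 of 19 alternatives.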

How the results depend on the processing

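The numbers of ligands called (3 in H1299, 3 in A549, 4 for the interaction and 7 in DMSO) and the numbers of all genes called stayed within 1.5 times their values in every alternative run. With any 1 library left out there were 3 ligands in each line, 3 to 4 for the interaction and 6 to 7 in DMSO. Of all genes tested in DMSO, 42.9% were higher and 42.8% lower in H1299, so the DMSO calls are close to what any gene would give. In H1299 9.29% of all genes rose and 12.7% fell, and in A549 17.7% rose and 19.4% fell. For the interaction 10.2% were more positive in H1299 and 9.25% more negative. The steadiness of these counts is no result about the ligands as a list. Of 400 values of single ligands under the alternatives, 375 kept their direction and their side of the threshold, 6 lost the call, 1 gained it (NRG1 in A549 with library totals) and 18 changed sign. All of the sign changes were in values that passed no test.

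In A549 the log2 fold change of BTC, 0.00, was -0.00055 with DESeq2 size factors, -0.0030 in DESeq2, -0.0010 with no filter, -0.019 in the joined fit and -0.025 without DMSO replicate 1 and library a together. Without 1 library it ranged from -0.059 to 0.059. HBEGF in A549, at -0.03, was 0.020 with library totals and ranged from -0.086 to 0.019 without a library. BTC in H1299 ranged from -0.22 to 0.011 without a library, and the interaction from -0.19 to 0.026 for BTC and from -2.14 to 1.72 for EREG. For these the cause was not tested, and the EREG values rest on 2 counts in H1299.

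A replicate block in H1299 gave 3 ligands and 3272 genes called. The deviations of same-numbered H1299 libraries correlated at -0.0857, -0.0255 and 0.0286 (10876 genes at 5 CPM or more), so the numbers were not taken as pairs. A549 and the joined fit have unnumbered libraries and got no block. The filter of 5 CPM removed BTC in both lines, and BTC and EPGN in the joined fit. In H1299, 30 counts for AREG and 2 for EREG limit what can be said of their response.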
